A study of Homo sapiens with 4 samples.

Results

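DNA replication starts at origins that are licensed in G1, when the origin recognition complex, CDC6 and CDT1 load the MCM2 to MCM7 helicase onto DNA. At the G1/S transition, cyclin E with CDK2 releases E2F transcription factors from the retinoblastoma protein, and E2F raises many genes of the replication machinery. In S phase, MCM10, CDC45 and the GINS complex turn the loaded helicase into an active one, polymerases alpha, epsilon and delta copy the strands with the sliding clamp PCNA and its loader RFC, and FEN1 and LIG1 join Okazaki fragments. A set of 41 genes of this machinery was taken by symbol from the deposited table, and all 41 were found once each among its 28391 genes. They comprise 10 licensing genes, 6 genes of helicase activation, 9 of polymerases and primase, 6 of the clamp and its loader, 2 of Okazaki fragment maturation, 4 of nucleotide supply and 4 regulators of the G1/S transition. All 41 passed the filter on low values, with means from 145 to 9439 normalised counts over the 4 libraries.

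The RNA came from HCT116, an established human colorectal carcinoma cell line grown with serum. There were 2 libraries of cells with a control hairpin (shNC), labelled wild type, and 2 of cells with a hairpin that depletes ALKBH5 (shALKBH5), a demethylase that removes N6-methyladenosine from RNA. The labels name 1 targeting hairpin group, no drug and no time point, and leave unstated if replicate libraries were grown as separate cultures; the p-values thus reflect library-to-library spread alone, which may be technical. Fewer cells in S phase and less RNA per cell cannot be told apart in such bulk samples. ALKBH5 read 1905 and 1941 under shNC against 312 and 270.2 under shALKBH5, a log2 fold change of -2.72 ± 0.0812 (SE). The libraries held from 16398604 to 17493141 reads in genes, and no library of a member had fewer than 126 reads. The epithelial keratin and adhesion genes KRT8, KRT18, KRT19, EPCAM and CDH1 were present in every library, VIL1 and LGALS4 were near 0, the summed fibroblast markers, nearly all COL1A1, were between 858 and 925 normalised counts, and the summed leukocyte, endothelial and hepatocyte markers reached at most 56.2 normalised counts in any library. Values are normalised counts, which are reads divided by 1 size factor per library. Differences between groups are log2 fold changes of value + 1, and a gene was called at a Benjamini-Hochberg adjusted p under 0.05 in limma-trend over 25887 genes.

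A pair of S-phase genes changed: E2F8, an atypical E2F that represses E2F target genes, and RRM2, the small subunit of ribonucleotide reductase, both fell after depletion of ALKBH5. The replicative helicase MCM2 to MCM7 differed little, with log2 fold changes between -0.11 and 0.054. Most other members lay slightly below the control. Of the 41 members, 2 fell, 0 rose and 39 did not pass in limma-trend, while 15 were lower and 3 higher at an unadjusted p under 0.05. Over all genes tested limma-trend called 1.88% lower and 1.98% higher, 3.86% in all. Among the 11239 genes whose mean reached 100 it called 4.23% lower and 4.43% higher. The 4.88% of members called lower is near that share. The 18 members at an unadjusted p under 0.05 in either direction are 43.9%, close to the 37.5% of those 11239 genes; by direction the genes stand at 18% lower and 19.5% higher, the members at 36.6% and 7.32%. The median log2 fold change of the members was -0.070, against -0.0040 for all genes tested and 0.0094 for those 11239 genes. A log2 fold change below 0 was found for 28 members, or 68.3%, against 48.3% of those genes.

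Counting tools applied to the whole reads recovered from the values called more members. The quasi-likelihood test of edgeR called 10 members lower and 1 higher, where it called 10.4% of all genes lower and 10.4% higher, and of the 11239 genes 13.4% and 13.8%. DESeq2 called 5 lower and 0 higher, where it called 5.32% of genes lower and 6.06% higher, and of the 11239 genes 5.95% and 6.86%. At an unadjusted p under 0.05 in DESeq2, 12 members were lower and 1 higher, or 29.3% and 2.44%, against 12.1% and 13.4% of those genes. The authors' deposited table also gives 5 members lower and 0 higher, namely E2F8, RRM2, POLE, LIG1 and CDC6. Besides these 5, edgeR called MCM10, GINS1, RFC3, RRM1 and E2F1 lower and GINS3 higher. Both shALKBH5 values were below both shNC values for 24 members, or 58.5%, and above them for 4, or 9.76%. The same held for 25.6% and 25% of all genes tested, and for 31% and 33.8% of those whose mean reached 100. With libraries rescaled to equal totals, 10 members were lower and 0 higher, and over all genes 1272 were lower and 787 higher against 487 and 513 with the deposited scaling (5.09% and 3.15% of genes with equal totals). Of the genes whose mean reached 100, 10.6% were lower and 6.6% higher with equal totals.

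**Figure D1:**
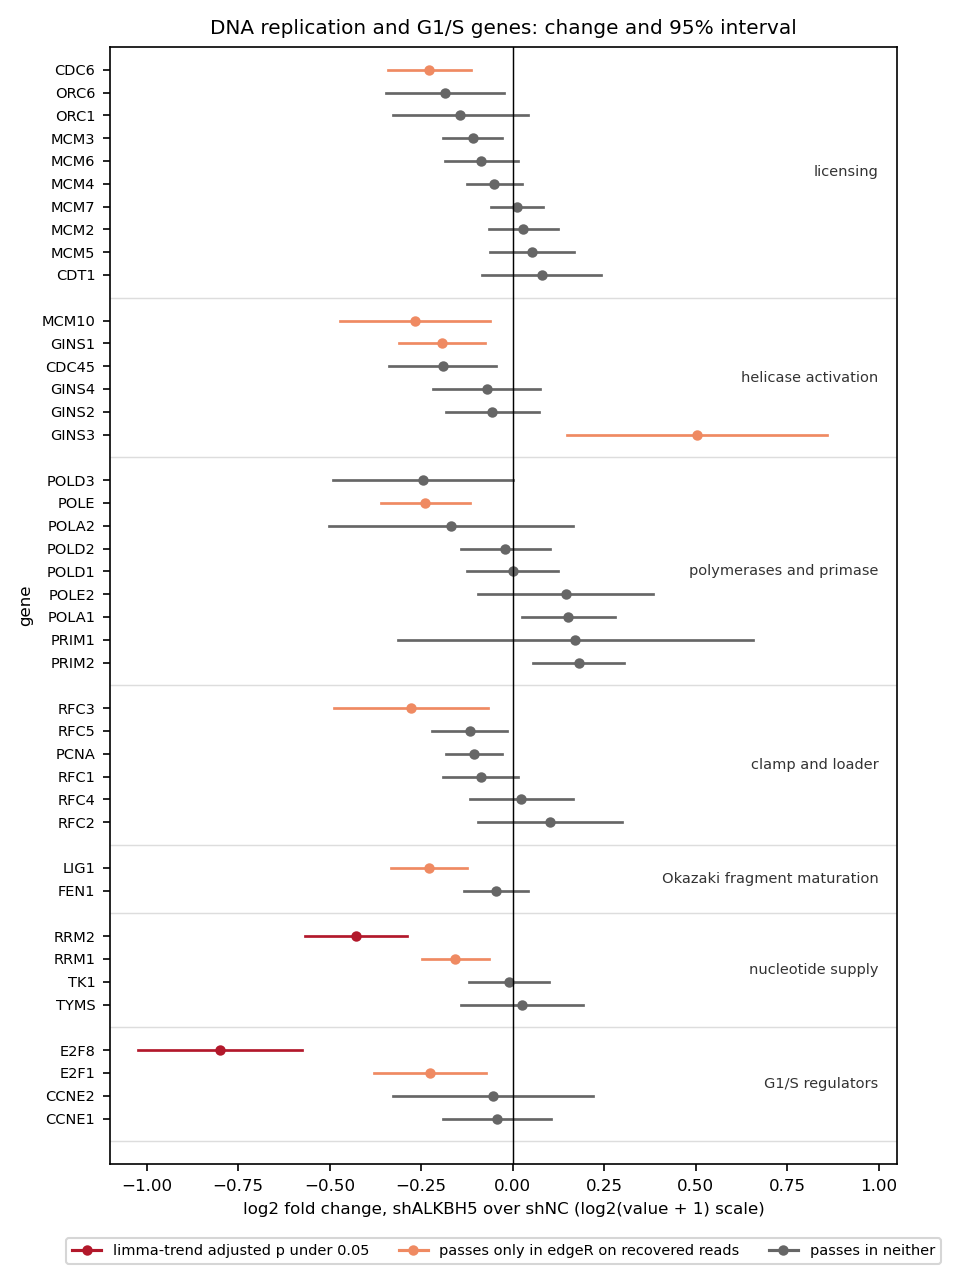
Log2 fold change of shALKBH5 over shNC (points) with its 95% interval from limma-trend (lines) for the 41 genes, in blocks by role. E2F8 and RRM2 are the 2 genes past the threshold of limma-trend; GINS3 at 0.50 is the highest point.

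**Figure D2:**
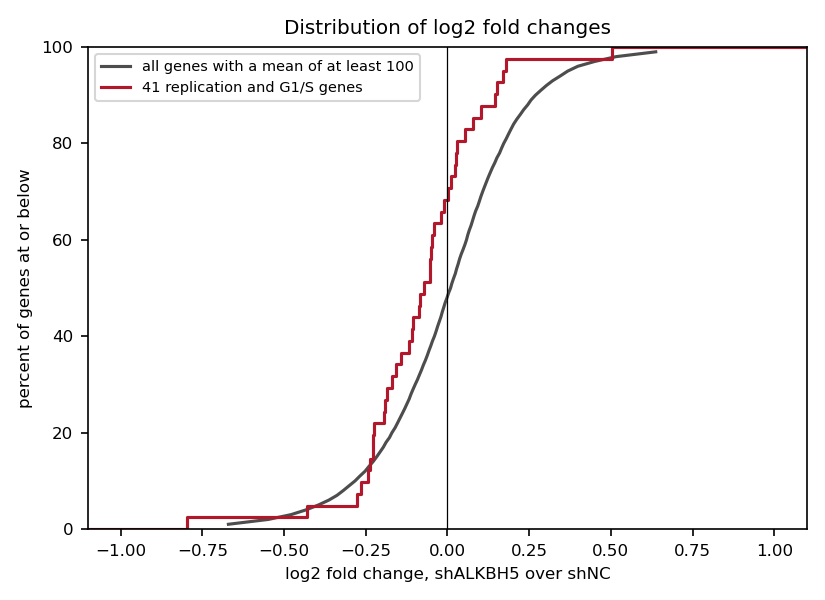
Cumulative share of genes (percent) at or below each log2 fold change, for the 41 members (red steps) and for the 11239 genes averaging 100 or more normalised counts (grey, drawn from its first to its 99th percentile). At a log2 fold change of 0 the members stand at 68.3% and the other curve at 48.3%.

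Among the 4 regulators of the G1/S transition, E2F8 stood out. E2F8 (ENSG00000129173, chromosome 11, 19224063 to 19241620, minus strand, GRCh38) was measured at 636 and 706 under shNC against 364 and 407 under shALKBH5. Both depleted libraries lay well below both controls. Its mean fell 1.74-fold, from 671 ± 49.3 to 386 ± 30.8 (SD, n = 2). On the log2 scale this was -0.80 ± 0.0894 (SE), with a limma-trend adjusted p of 0.0195. Of the 11239 genes, 0.561% had a lower log2 fold change. E2F1, an activator E2F, read 1046 and 1085 in shNC against 949 and 874 in shALKBH5. Its groups did not overlap, but its log2 fold change of -0.23 did not pass in limma-trend (adjusted p 0.115). It passed in edgeR at 0.0205, but edgeR gave 0.0593 without shNC library 2 and 0.234 without shALKBH5 library 2. The difference of log2 values between E2F8 and E2F1 within a library was -0.72 and -0.62 in shNC and -1.38 and -1.1 in shALKBH5, so E2F8 was the lower of the pair in every library and further below in the depleted ones. This difference between the genes was not tested. E2F7, the closest relative of E2F8, read 709.6 and 689.6 in shNC against 681 and 693 in shALKBH5, with overlapping groups and -0.027 on the log2 scale; it was named for its kinship, not by the rule for named genes. The cyclin E genes gave little: CCNE1 read 599 and 599 in shNC against 569 and 594 in shALKBH5, or -0.042 on the log2 scale with a 95% interval of -0.19 to 0.11. CCNE2 was at -0.054 with an interval of -0.33 to 0.22, and it shares 37% of its exon bases with INTS8 on the opposite strand, from which its reads cannot be told apart without strand.

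Ribonucleotide reductase makes deoxynucleotides from ribonucleotides, and its RRM2 subunit is made in S phase, whereas RRM1 is the large catalytic subunit. RRM2 (ENSG00000171848, chromosome 2, 10120698 to 10131419, plus strand, GRCh38) read 4663 and 4303 under shNC against 3218 and 3439.9 under shALKBH5. The controls were higher in each case. Its mean fell 1.35-fold, from 4483 ± 254 to 3329 ± 157 (SD, n = 2), or -0.43 ± 0.0556 on the log2 scale (limma-trend adjusted p 0.0252). RRM1 was measured at 3355 and 3288 in shNC against 2944 and 3017 in shALKBH5. Its groups were separate as well, but the smaller log2 fold change of -0.16 ± 0.0363 did not pass in limma-trend (adjusted p 0.0848) and passed in edgeR (adjusted p 0.0136). In edgeR the adjusted p of RRM1 was 0.158 without shALKBH5 library 1 and 0.0558 without shALKBH5 library 2. The log2 ratio of RRM2 to RRM1 was 0.47 and 0.39 with the control hairpin and 0.13 and 0.19 after depletion, with no overlap. A lower ratio follows in part from the fall of RRM2 itself, and the difference between the genes was not tested. Thymidylate synthase TYMS and thymidine kinase TK1, the other genes of nucleotide supply, had overlapping groups. TK1 read 7758 and 7815 in shNC against 8037 and 7446 in shALKBH5, a log2 fold change of -0.0093 with an interval of -0.12 to 0.10. TYMS was at 0.026 with an interval of -0.14 to 0.19; 39.1% of its exon bases are also exon of ENOSF1 on the opposite strand. Of the exon bases of RRM2, 20.2% are shared with AC007240.1 on the same strand. GENCODE release 29 lists pseudogenes named after RRM2, TYMS, PCNA, FEN1, RFC3, RFC5 and POLD2, with which reads of these genes could have been shared.

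The calls for E2F8 and RRM2 depended on having both controls in limma-trend, though not in edgeR. Without shNC library 1 or 2 limma-trend called 0 of all genes, and the adjusted p was 0.274 or 0.242 for E2F8 and 0.275 or 0.236 for RRM2, with the lone control assumed to vary like the depleted pair. At an unadjusted p under 0.05, 10 or 11 members were then lower, or 24.4% and 26.8%, against 12.6% and 13.1% of the 11239 genes. Without shALKBH5 library 1 or 2 the adjusted p was at most 6.39e-09 for E2F8 and at most 1.77e-07 for RRM2. In edgeR with any 1 library left out, the adjusted p of E2F8 was at most 1.53e-05 and that of RRM2 at most 5.11e-05. The log2 fold change in these fits ranged from -0.89 to -0.72 for E2F8 and from -0.49 to -0.37 for RRM2. Without the mean-variance trend limma called 0 genes in all, with an adjusted p of 0.203 for E2F8 and 0.26 for RRM2. Both were at an unadjusted p under 0.05. ALKBH5, the target of the hairpin, did not pass in that limma fit either, at an adjusted p of 0.0716.

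**Figure D3:**
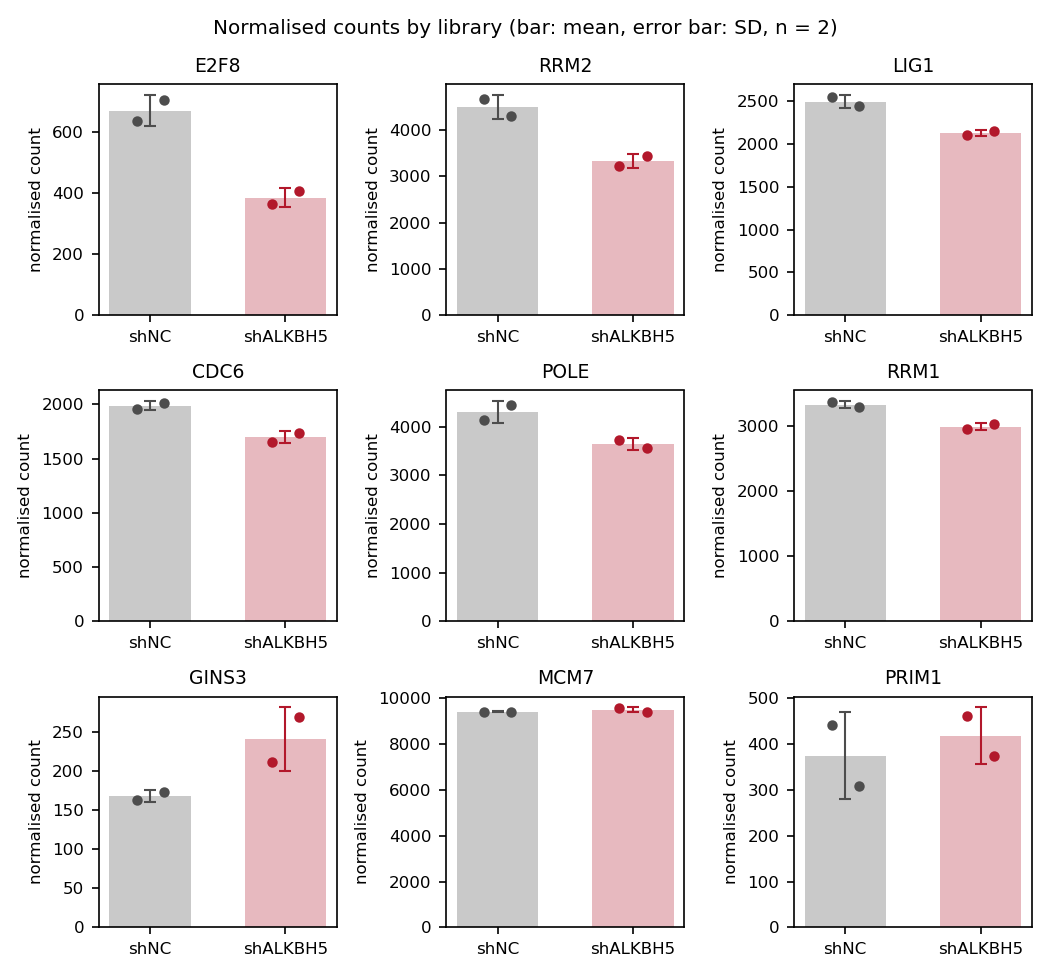
Normalised counts of 9 members in each library (points), with group means (bars) and SD (error bars, n = 2). E2F8, RRM2, LIG1, CDC6, POLE and RRM1 have both shALKBH5 points below both shNC points, GINS3 has them above, and MCM7 and PRIM1 overlap.

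Of the 10 licensing genes 0 passed in limma-trend, with 3 at an unadjusted p under 0.05, against 37.5% of genes whose mean reached 100. CDC6 alone was called lower by edgeR and by DESeq2, which called 13.4% and 5.95% of those genes lower. CDC6, the ATPase that helps to load the helicase, read 1958 and 2016 under shNC against 1659 and 1736 under shALKBH5. Both depleted libraries were below both controls. The difference of -0.23 ± 0.0451 on the log2 scale did not pass in limma-trend (adjusted p 0.0619). On the recovered reads edgeR gave CDC6 an adjusted p of 0.00311, which was 0.0708 without shALKBH5 library 1. The origin recognition subunits ORC1 and ORC6 were at -0.14 and -0.18 on the log2 scale, both with separate groups and neither past the threshold in limma-trend or edgeR. CDT1, the partner of CDC6 in loading, had overlapping groups, at 3075 and 3424 in shNC against 3553 and 3308 in shALKBH5, and differed by 0.079 on the log2 scale.

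The 6 subunits of the MCM2 to MCM7 ring form 1 hexamer, and 0 of them passed in limma-trend, edgeR or DESeq2. MCM3 alone was at an unadjusted p under 0.05 in limma-trend, against 37.5% of genes whose mean reached 100. MCM7 read 9409 and 9394 in shNC against 9552 and 9401 in shALKBH5, or 0.011 on the log2 scale with a 95% interval of -0.060 to 0.082. MCM2 was at 0.029 (interval -0.065 to 0.12) and MCM5 at 0.054 (-0.062 to 0.17). MCM3 read 4972 and 4860.2 in shNC against 4573 and 4539.8 in shALKBH5, and all 4 values kept the groups apart, at -0.11 on the log2 scale (limma-trend adjusted p 0.139). MCM6 was at -0.085 and MCM4 at -0.050, also with separate groups. The intervals of these 6 subunits reached no lower than -0.19 and no higher than 0.17, so that changes of the size measured for E2F8 or RRM2 lay outside them.

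Of the 6 genes that turn the loaded helicase into a moving one, 5 had both depleted libraries below both controls and 1 above. Such separation is common, at 31% lower and 33.8% higher among genes whose mean reached 100, and 0 of the 6 passed in limma-trend. MCM10, which acts at the step of helicase activation, read 922 and 1071 in shNC against 838 and 815 in shALKBH5. The controls differed between themselves by more than the depleted libraries did. Its log2 fold change was -0.27 ± 0.0818 (limma-trend adjusted p 0.147, edgeR 0.014), and edgeR gave 0.18 without shNC library 2, 0.0507 without shALKBH5 library 1 and 0.0823 without shALKBH5 library 2. CDC45, the helicase cofactor, was at -0.19 with values of 836 and 813 in shNC against 745 and 701 in shALKBH5. GINS is a complex of 4 subunits, and their log2 fold changes differed in sign: GINS1 was at -0.19, GINS2 at -0.055 and GINS4 at -0.070, whereas GINS3 was at 0.50. GINS1 read 1079 and 1095 in shNC against 958 and 944 in shALKBH5 (limma-trend adjusted p 0.0935, edgeR 0.0343; with 1 library left out, edgeR gave between 0.052 and 0.18). GINS3 read 163 and 174 in shNC against 212 and 269 in shALKBH5. Its 2 depleted libraries stood apart from each other by more than the lower of them stood above the controls. The interval was 0.15 to 0.86, and its adjusted p was 0.125 by limma-trend and 0.014 by edgeR, and 0.214 in edgeR without shALKBH5 library 2. GINS3 was also the least abundant of the 4 by length, at 32.9 normalised counts per kb of exon in shNC, against 308 for GINS2. An antisense RNA shares 10.9% of its exon bases.

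The polymerase genes showed no common direction. Of 9 members 0 passed in limma-trend, with 3 at an unadjusted p under 0.05, against 37.5% of genes whose mean reached 100. POLE alone was called lower by edgeR and by DESeq2, which called 13.4% and 5.95% of those genes lower. POLE, the catalytic subunit of the leading-strand polymerase epsilon, read 4145 and 4456 under shNC against 3726 and 3563 under shALKBH5. The groups were separate, and the log2 fold change was -0.24 ± 0.0489 (limma-trend adjusted p 0.0664, edgeR 0.000751). POLE2, its accessory subunit, was at 0.14 with overlapping groups. The log2 ratio of POLE to POLE2 was 3.79 and 3.72 in shNC and 3.47 and 3.27 in shALKBH5. This ratio was not tested either. For polymerase alpha with primase, which starts each new strand, POLA1 read 749.5 and 756 in shNC against 846 and 828 in shALKBH5 and PRIM2 read 947 and 943 in shNC against 1094 and 1048 in shALKBH5. Both had the depleted libraries on top, at 0.15 and 0.18, and neither passed (limma-trend adjusted p 0.171 and 0.121; edgeR 0.144 and 0.0582). POLA2, the regulatory subunit, was at -0.17 and the primase catalytic subunit PRIM1 at 0.17, both with overlapping groups. PRIM1 read 441 and 308 in shNC against 461 and 373 in shALKBH5, and it was the member with the widest interval, -0.31 to 0.66. Polymerase delta, which copies the lagging strand, was even for POLD1 at 0.00025 and POLD2 at -0.020. Its accessory subunit POLD3 was at -0.24 with 399 and 440.3 in shNC against 378 and 331 in shALKBH5, and passed in neither tool.

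PCNA, the sliding clamp that tethers the polymerases, had small spread and a small difference. It read 5287 and 5280.1 in shNC against 4916 and 4907 in shALKBH5, and its log2 fold change of -0.11 ± 0.0304 did not pass (limma-trend adjusted p 0.132, edgeR 0.0605). The loader RFC is a complex of 5 subunits. RFC3 read 773 and 675 in shNC against 579 and 615 in shALKBH5, at -0.28 ± 0.0839 (limma-trend adjusted p 0.144); edgeR called it at 0.0186, but gave 0.204 without shNC library 1 and 0.137 without shALKBH5 library 1. RFC5 was at -0.12 and RFC1 at -0.087, with separate groups, while RFC4 at 0.024 and RFC2 at 0.10 overlapped. LIG1, the ligase that seals Okazaki fragments, read 2541 and 2439 under shNC against 2099.5 and 2151 under shALKBH5. The depleted libraries lay below the controls by more than the spread within either pair. Its log2 fold change was -0.23 ± 0.0417, and its adjusted p was 0.0521 by limma-trend and 0.00162 by edgeR, and edgeR still gave at most 0.0346 with any 1 library left out. FEN1, the flap nuclease of the same step, was at -0.046 with an interval of -0.13 to 0.041. With all 4 libraries, E2F8, RRM2, POLE, LIG1 and CDC6 were called lower by both edgeR and DESeq2. These tools called 13.4% and 5.95% of genes whose mean reached 100 lower. The share of those genes called lower by both was not counted.

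Summed over the 41 genes, the normalised counts were 89611 and 89858 in shNC and 85934 and 84152 in shALKBH5, a difference of -5.23% in the mean. The sum of the licensing genes differed by -1.99%, that of the nucleotide supply genes by -9.06% and that of the 4 G1/S regulators by -18.5%. Single genes made up most of the latter differences: of -1519 counts over nucleotide supply, RRM2 held -1154 and the most abundant gene, TK1, -44.4, and of -463 over the G1/S regulators E2F8 held -286. The sums carry no test. By length, TK1 at 4184, PCNA at 3592 and MCM7 at 2144 normalised counts per kb of exon in shNC were the most abundant members, and POLA2 at 26.9, GINS3 at 32.9 and CCNE2 at 37.3 the least. Within the MCM2 to MCM7 ring the level per kb in shNC ran from 469 for MCM5 to 2144 for MCM7, although the subunits are used in equal numbers. The length used is the union of all annotated exons of a gene, not that of the transcript expressed. Levels per kb of different genes thus compare only roughly. The order of the ring subunits by level per kb was not altered between the groups except that MCM6 at 692 and MCM2 at 655 in shNC changed places, at 653 and 668 in shALKBH5. Over the 41 members the Spearman rho of gene length with log2 fold change was -0.19, and that of mean level with it was 0.036. These are descriptions over genes that share the same 4 libraries; over the 11239 genes the rho with length was -0.16.

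**Figure D4:**
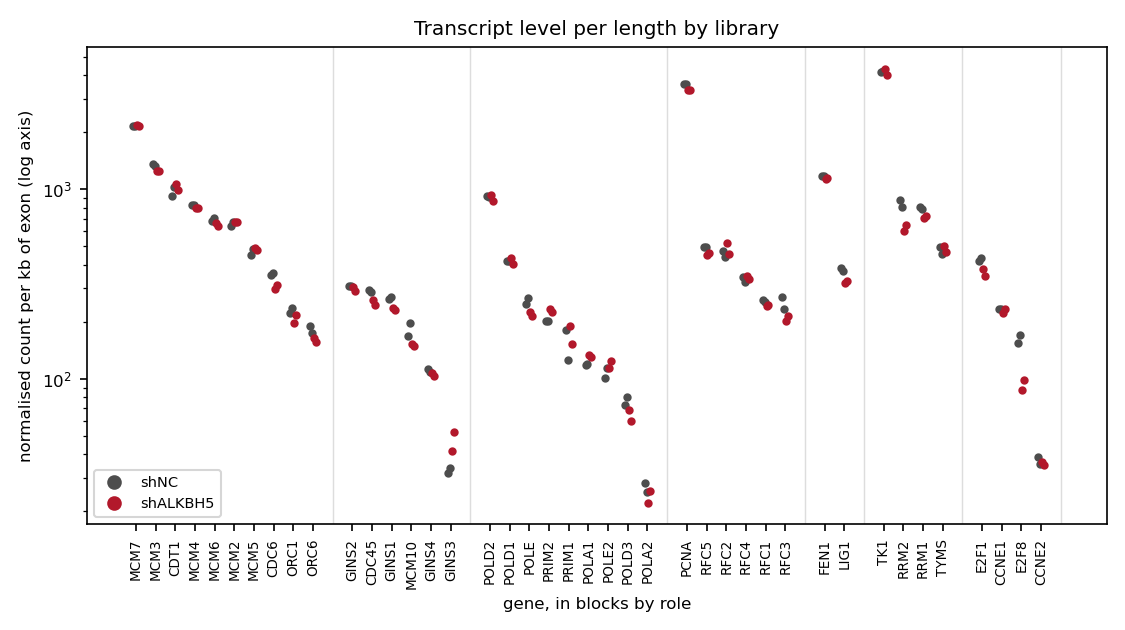
Normalised counts per kb of exon (log axis) for the 41 genes in blocks by role, with 2 shNC points (grey) and 2 shALKBH5 points (red) per gene. TK1 and PCNA stand highest, POLA2, GINS3 and CCNE2 lowest, and E2F8 shows the widest gap between the groups on the lower side.

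E2F sites in promoters are what many of these genes are known to share, and the promoter windows of RefSeq on GRCh38.p14, 250 bases before to 50 after each start, held such letters often. Windows were matched by symbol for 35 of the 41 members. E2F8, the member with the lowest log2 fold change, was not among them, and so is in neither side of the split by motif given here. The E2F core, searched as TTCCCGC or TTGGCGC on both strands, was in a window of 24 of the 35, or 68.6%, against 18.7% of the 8741 genes averaging 100 or more that had a window. Counted by window, it was in 56.8% of the 44 member windows and in 9.23% of all 35116 windows. The CCAAT box, the site of the factor NF-Y, was in windows of 21 members, or 60%, against 43.3% of those genes (34.6% of all windows). The CHR element TTTGAA, known from genes of late cell cycle, was in 1 member window, of RRM1, against 15.2% of all windows. The reverse of CCAAT shares letters with TTGGCGC, so that 1 stretch can count for both. Members with the E2F core had a median log2 fold change of -0.086 (15 of 24 below 0, from -0.43 to 0.50), and the 11 without it -0.046 (8 below 0, from -0.27 to 0.18). A match is no proof of a bound site. The windows of CDC6, LIG1 and POLE are shown because these genes were lower in the counting tools, and that of MCM7 because it differed little; capitals mark the E2F core on either strand, which also stands in MCM7. For RRM2 the capitals mark its 3 CCAAT boxes, since this window holds no E2F core; an overlapping second RRM2 window holds 1, starting 192 bases before its start.
CDC6 (GRCh38.p14, chr17:40287629-40287928, plus strand): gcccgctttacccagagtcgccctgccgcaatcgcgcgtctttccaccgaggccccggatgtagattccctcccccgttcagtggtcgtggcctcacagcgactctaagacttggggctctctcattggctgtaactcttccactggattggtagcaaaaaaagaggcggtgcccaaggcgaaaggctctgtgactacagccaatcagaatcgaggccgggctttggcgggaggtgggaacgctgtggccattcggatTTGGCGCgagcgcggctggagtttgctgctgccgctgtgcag
LIG1 (GRCh38.p14, chr19:48170295-48170594, minus strand): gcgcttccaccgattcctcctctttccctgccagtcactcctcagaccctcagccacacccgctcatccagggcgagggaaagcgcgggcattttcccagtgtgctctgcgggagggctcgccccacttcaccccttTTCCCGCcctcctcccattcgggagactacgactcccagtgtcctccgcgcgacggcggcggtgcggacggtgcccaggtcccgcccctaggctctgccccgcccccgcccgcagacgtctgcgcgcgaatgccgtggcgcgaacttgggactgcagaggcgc
POLE (GRCh38.p14, chr12:132687293-132687592, minus strand): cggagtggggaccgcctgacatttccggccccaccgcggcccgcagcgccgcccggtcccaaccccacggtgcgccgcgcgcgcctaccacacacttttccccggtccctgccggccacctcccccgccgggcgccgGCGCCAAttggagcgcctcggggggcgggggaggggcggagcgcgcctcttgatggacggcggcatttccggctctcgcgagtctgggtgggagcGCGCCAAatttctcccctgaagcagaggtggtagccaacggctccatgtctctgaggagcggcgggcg
MCM7 (GRCh38.p14, chr7:100101348-100101647, minus strand): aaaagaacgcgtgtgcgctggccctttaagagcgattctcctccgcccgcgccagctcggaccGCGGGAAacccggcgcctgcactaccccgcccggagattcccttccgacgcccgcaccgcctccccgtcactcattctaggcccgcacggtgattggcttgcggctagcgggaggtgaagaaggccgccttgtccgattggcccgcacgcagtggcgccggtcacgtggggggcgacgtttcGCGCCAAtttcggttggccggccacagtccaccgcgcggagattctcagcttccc
RRM2 (GRCh38.p14, chr2:10122489-10122788, plus strand): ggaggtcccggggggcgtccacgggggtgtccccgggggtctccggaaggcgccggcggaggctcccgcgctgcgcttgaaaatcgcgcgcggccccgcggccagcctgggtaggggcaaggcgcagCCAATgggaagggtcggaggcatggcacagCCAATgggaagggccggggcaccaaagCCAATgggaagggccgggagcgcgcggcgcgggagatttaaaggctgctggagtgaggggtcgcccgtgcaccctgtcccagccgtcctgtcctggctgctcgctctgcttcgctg
In these windows the core of CDC6 starts 8 bases after the transcription start, that of LIG1 113 bases before it, those of POLE 113 and 18 bases before it and those of MCM7 187 and 5 bases before it. The RRM2 boxes start 123, 93 and 66 bases before the start. RRM2, which fell, and MCM7, which was nearest to 0 of those shown, both hold 3 CCAAT boxes in the window shown.

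A wider list of 55 other replication genes, all tested, had 3 members that fell, 1 that rose and 51 that did not pass in limma-trend, with a median log2 fold change of -0.027. The 5.45% called lower is near the 4.23% of genes whose mean reached 100, of which 4.43% were called higher. Separate groups were found for 21 of the 55 on the lower and 18 on the higher side, or 38.2% and 32.7%, near the 31% and 33.8% of genes whose mean reached 100. The 3 that fell act at the firing of origins and at the fork. DBF4, the activating partner of the kinase CDC7, read 1041 and 994 in shNC against 764 and 758 in shALKBH5, at -0.42 ± 0.0523 (limma-trend adjusted p 0.0236). TICRR, which links CDK activity to CDC45 loading, read 1178 and 1196 in shNC against 965 and 934 in shALKBH5, at -0.32 (limma-trend adjusted p 0.0344). TIMELESS, a fork protection protein, read 2419.7 and 2447 in shNC against 2117 and 2066 in shALKBH5, at -0.22 (limma-trend adjusted p 0.0476). CHTF8, a subunit of the alternative clamp loader of cohesion, rose, with 2552 and 2679.9 in shNC against 3249.6 and 3245 in shALKBH5, at 0.31 (limma-trend adjusted p 0.0252). A partner in that loader, CHTF18, was at -0.27 and did not pass in limma-trend (adjusted p 0.0677), though it was called lower by edgeR (0.000786) and DESeq2 (0.00412). Another, DSCC1, was at 0.20 with both depleted libraries above both controls, and did not pass (adjusted p 0.145 in limma-trend, 0.0507 in edgeR). CHTF18 and DSCC1 were named after their values were seen. The 4 past the threshold in limma-trend were DBF4, TICRR, TIMELESS and CHTF8. Without shNC library 1 or 2, 0 of these 4 passed in limma-trend, the adjusted p lying from 0.228 to 0.277, and TIMELESS was at 0.0524 without shALKBH5 library 2, 0.052 with a pseudocount of 0.5 and 0.0554 with no filter on low values. In edgeR all 4 passed with any 1 library left out, with adjusted p-values of at most 0.0339.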

How the data were processed

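RNA was sequenced from 4 HCT116 libraries, 2 with a control hairpin and 2 with a hairpin against ALKBH5, prepared with an mRNA kit per the labels' protocols. For the aligner, counter and genome build: not given in the sources used here. All 41 members had the same position and exon length in GENCODE release 29 on GRCh38. Use of strand in counting is not stated; 14 members share exon bases with a gene on the opposite strand.

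The authors deposited a signal per gene, read counts divided by a size factor. The deposited table also holds the authors' log2 fold change, p-value and adjusted p-value. Every value (100%) was a whole number of reads within 0.001 reads after division by 1 step per library, and on these reads edgeR called 3428 genes. The intervals of limma cover the spread between libraries, not counting error alone.

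The test was on log2(value + 1) for genes that reached 1 in 2 or more libraries, with limma-trend 3.58.1 (R 4.3.3, prior 3.48 degrees of freedom), adjusted over all 25887 genes. Alternatives were edgeR 4.0.16 and DESeq2 1.42.0 on recovered reads, pseudocounts of 0.5 and 5, other filters and scalings, a replicate block and each library left out; leaving libraries out in edgeR was added after the data were seen. The tests were tested on simulated data. Within-group chi-square per gene was 3.00 (shNC) and 2.28 (shALKBH5), above sampling noise.

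The members, lists and motifs were chosen with earlier results of these data known. All 41 members are named; of other lists, those past the threshold and up to 4 with the smallest p.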

Additional observations from a re-analysis of the deposited data

How the results depend on the processing

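The number of members called changed with the processing. Against 2 lower and 0 higher as reported, 10 were lower and 2 higher among genes with a mean of at least 50 (where 13.5% and 14.3% of all genes were called). With equal totals 10 were lower, against 5.09% of all genes and 10.6% of genes whose mean reached 100. Without the mean-variance trend 0 were lower (0 of all genes). With the replicate number as a block 1 was lower, against 0.48% of genes whose mean reached 100. On recovered reads edgeR gave 10 lower and 1 higher and DESeq2 5 lower. They called 13.4% and 5.95% of genes whose mean reached 100 lower. With 1 library left out, limma-trend gave from 0 to 6 lower and from 0 to 1 higher, and edgeR from 5 to 9 lower and from 0 to 2 higher. The share of all genes called also moved with the library left out, in both tools. The member counts of those fits thus do not by themselves show a change particular to the members. Pseudocounts of 0.5 and 5, no filter on low values and TMM factors gave 2 or 3 lower and 0 higher. In these settings from 3.35% to 4.6% of genes whose mean reached 100 were lower. The median log2 fold change of the members was -0.070 as reported, -0.10 with equal totals and from -0.090 to -0.057 in limma-trend and -0.093 to -0.058 in edgeR with 1 library left out. Over all genes tested the median was -0.0040 as reported and -0.029 with equal totals. Equal totals rescale each library by 1 factor, and the log2 fold changes of the members all moved down by about the same amount. POLE moved from -0.238 to -0.271 and MCM7 from 0.011 to -0.022, and ALKBH5 moved from -2.723 to -2.756. Fewer genes tested, or fewer samples, is part of some of these settings. Beyond this the cause of the changed counts was not tested.

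The 12 genes named past the threshold from the other lists were lost without the mean-variance trend and with the block. The direction held in all 18 alternatives for 32 of the 41 members. With equal totals MCM2 was at -0.0038, MCM7 at -0.022, POLD1 at -0.033, RFC4 at -0.0093 and TYMS at -0.0073 on the log2 scale, below 0 in place of above it, and POLD1 was at -0.0019 in edgeR. With 1 library left out in limma-trend, CCNE2 ran from -0.11 to 0.0023, MCM2 ran from 0.00081 to 0.058, MCM7 ran from -0.00011 to 0.023, POLD1 ran from -0.054 to 0.054, POLD2 ran from -0.077 to 0.036, PRIM1 ran from -0.089 to 0.43, RFC4 ran from -0.021 to 0.069, TK1 ran from -0.064 to 0.046 and TYMS ran from -0.041 to 0.092 on the log2 scale. With 1 library left out in edgeR, CCNE2 ran from -0.11 to 0.00095, MCM2 ran from -0.00067 to 0.055, MCM7 ran from -0.0015 to 0.02, POLD1 ran from -0.055 to 0.051, POLD2 ran from -0.079 to 0.033, PRIM1 ran from -0.085 to 0.44, RFC4 ran from -0.024 to 0.068, TK1 ran from -0.066 to 0.043 and TYMS ran from -0.043 to 0.092 on the log2 scale. Between these ends edgeR also gave below 0 POLD1 at -0.0070 without shNC library 2, and PRIM1 at -0.0098, RFC4 at -0.0096 and TYMS at -0.028 without shALKBH5 library 1.

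With the replicate number as a block, E2F8 passed at an adjusted p of 0.0467 and RRM2 did not at 0.0963 in limma-trend. The deviations of same-numbered libraries had a correlation of -0.027 over 12540 genes, and the labels name no shared batch. Whether same-numbered libraries share more than a number is not stated. With 2 libraries a group, the 95% interval of a member, not adjusted for the number of genes, had a median half-width of 0.13 on the log2 scale, and smaller differences were mostly not detectable. Larger ones could also miss the adjusted threshold of limma-trend, as did POLE at -0.24, RFC3 at -0.28 and GINS3 at 0.50.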

Other observations

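Genes of G2 and mitosis were mixed in direction. Of 28 listed and tested, 2 rose, 2 fell and 24 did not pass in limma-trend, with a median log2 fold change of 0.0029 and 14 on each side of 0. The 2 that fell are 7.14%, against 4.23% lower and 4.43% higher among genes whose mean reached 100. TPX2, a spindle assembly factor, read 4759 and 4777 in shNC against 5657 and 5509 in shALKBH5 and rose by 0.23 (limma-trend adjusted p 0.0321), and the mitotic kinesin KIF20A read 2117 and 2216 in shNC against 2562 and 2747 in shALKBH5 and rose by 0.29 (limma-trend adjusted p 0.0476). ASPM, a spindle pole protein, read 1962 and 1875 in shNC against 1489 and 1507 in shALKBH5 at -0.36, and CENPA, the histone variant of centromeres, read 771 and 702 in shNC against 555 and 524 in shALKBH5 at -0.45; both fell (limma-trend adjusted p 0.0232 and 0.0415). Without shNC library 1 or 2, 0 of these 4 passed in limma-trend, with adjusted p-values from 0.228 to 0.292, and KIF20A was at 0.054 with a pseudocount of 0.5 and 0.0563 with no filter on low values, while all 4 passed in edgeR with any 1 library left out.

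In a list of 13 CDK inhibitors, retinoblastoma family genes and the E2F4 to E2F6 genes, 2 rose, 2 fell and 9 did not pass in limma-trend, with a median log2 fold change of -0.16. The 2 that fell are 15.4% of this short list, against 4.23% lower and 4.43% higher among genes whose mean reached 100. CDKN1A, the CDK inhibitor induced by p53, read 8505 and 8758 in shNC against 10657 and 10493 in shALKBH5 and rose by 0.29, and the retinoblastoma gene RB1 read 841 and 819 in shNC against 1007 and 1036 in shALKBH5 and rose by 0.30 (limma-trend adjusted p 0.017 and 0.0443). CDKN2A, the inhibitor and tumour suppressor locus, read 1527 and 1622 in shNC against 1178 and 1255 in shALKBH5 at -0.37, and CDKN2D, an inhibitor of CDK4 and CDK6, read 467 and 521 in shNC against 364 and 347 in shALKBH5 at -0.47; both fell (limma-trend adjusted p 0.0362 and 0.0477). Without shNC library 1 or 2, 0 of these 4 passed in limma-trend, with adjusted p-values from 0.228 to 0.277. CDKN2D was at 0.0534 with a pseudocount of 0.5, and with no filter on low values CDKN2D was at 0.0561 and RB1 at 0.0523. In edgeR all 4 passed with any 1 library left out. The part of these genes in the values of the replication genes was not tested.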
